A study of Mus musculus with 8 samples.

Results

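LRH-1 binding in the mouse ovary was compared before and 4 h after the ovulatory signal, using all 15299 peaks of the deposited LRH-1 lists, 5886 before human chorionic gonadotropin (hCG) and 9413 after it. They are 15299 of the 59521 peaks of the series, the remaining 44222 being open chromatin peaks from FAIRE, an assay that recovers DNA free of nucleosomes. Both groups were C57BL/6 mice carrying intact LRH-1 (labelled LRH-1 +/+), 22 to 25 days old, given 5 IU of equine chorionic gonadotropin (eCG) to grow follicles. The group after hCG also received 5 IU of hCG 44 h after eCG and was collected 4 h later, and the group before hCG was collected at 0 h. Each time has 1 list, labelled as 2 replicates, with 5 per condition stated in the protocol and no word on how animals were pooled. The tissue label reads granulosa cells, whereas the LRH-1 protocol starts from sliced ovarian tissue and the FAIRE protocol from granulosa cells isolated by puncture, so LRH-1 peaks may come from other ovarian cells too. Peak lists hold no expression by which the cell type could be checked. With 1 list per time no error between replicates can be given. Intervals below are 95% intervals, for counting error only where they belong to shares and ratios. Those of medians reflect the spread over sites or peaks, which are not replicates.

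LRH-1 (gene Nr5a2) is a nuclear receptor that binds DNA as a monomer at an extended recognition site and regulates genes of steroid and cholesterol metabolism. In the ovary it is found in granulosa and luteal cells, and mice without it in granulosa cells do not ovulate. The luteinising hormone surge, which hCG imitates, turns granulosa cells from oestrogen production towards progesterone production and starts the rupture of the follicle. All positions are in build mm9. No mm9 sequence or gene annotation was used here, so sites are named by position, and neither genes, exons nor motifs are assigned.

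The enrichment values of these lists could be taken apart into the reads behind them. The peak caller, MACS2, extends reads to a fragment length, counts the fragments over the summit, and divides that count plus 1 by the local background plus 1. Fold enrichment and p-value together gave a whole number of fragments at the summit in 5886 of 5886 peaks before hCG and 9413 of 9413 after it, within 0.001 in −log10 p. The background of every peak above its floor was a whole number of fragments in 10 kb around the summit (5237 of 5237 and 8700 of 8700 peaks, within 0.01), and that number was never below the fragments at the summit. Multiples of 10 made up 10.5% and 10.3% of these numbers, close to an even share of last digits, so no background counted over 1 kb was seen. These are the values that ChIP reads themselves give when counted in a 10 kb window with no scaling and no input library, although the labels do not state how the background was made. Read this way, fold enrichment measures how far a summit rises above the LRH-1 ChIP signal around it.

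Both lists appear to rest on the same total of reads. The background floor, which MACS2 sets from that total, was 2.27 fragments before hCG at a smallest peak width of 219 bp, taken as the fragment length in MACS2, and 2.42 fragments after it at 233 bp. Per 10 kb both floors came to 103.8 fragments. The least significant listed peaks had a −log10 p of 5.63 before hCG and 5.50 after it. The fragment length was 14 bp longer after hCG, which by itself raises a count of overlapping fragments slightly.

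More sites rose above the threshold after hCG at this depth, and most of the new ones were weak. Peaks with at least 20 fragments at the summit numbered 3830 before and 6680 after hCG, and those with at least 30 numbered 1212 and 2194. Among the strongest the order turned, with 20 peaks of at least 100 fragments before hCG and 12 after it. With the level raised in proportion to fragment length, the counts after hCG were 5380, 1746 and 10. Over whole lists the median summit held 22 fragments before hCG (quartiles 18 and 28) and 23 after it (quartiles 19 and 29), so the longer list was not made of stronger peaks.

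Whether a site was found at both times depended on how many fragments it held and, for the weaker sites, on the list it was counted from. Overlap means at least 1 shared bp. Of all peaks before hCG, 3938 (66.9%, interval 65.7 to 68.1) were found again after it. Of all peaks after hCG, 3940 (41.9%, interval 40.9 to 42.9) had been present. The shared peaks are nearly the same number in both lists, so their share is lower in the longer list by its length alone. With only the best-scoring 5886 peaks after hCG the shares were 53.8% and 53.7%. Shares by fragments, below, are from the full lists of unequal length. The remaining 1948 peaks before hCG are called lost and the remaining 5473 after hCG gained. Peaks before hCG with 12 to 15 fragments were found after it in 45.0% of cases (interval 40.2 to 49.9), whereas peaks after hCG of that size were found before it in 14.2% (interval 11.1 to 17.7). With 30 to 39 fragments the shares were 84.6% (interval 81.8 to 87.2) and 63.9% (interval 61.3 to 66.5). At 60 fragments or more they met, at 96.6% (112 of 116 peaks) and 96.5% (167 of 173 peaks).

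**Figure D1:**
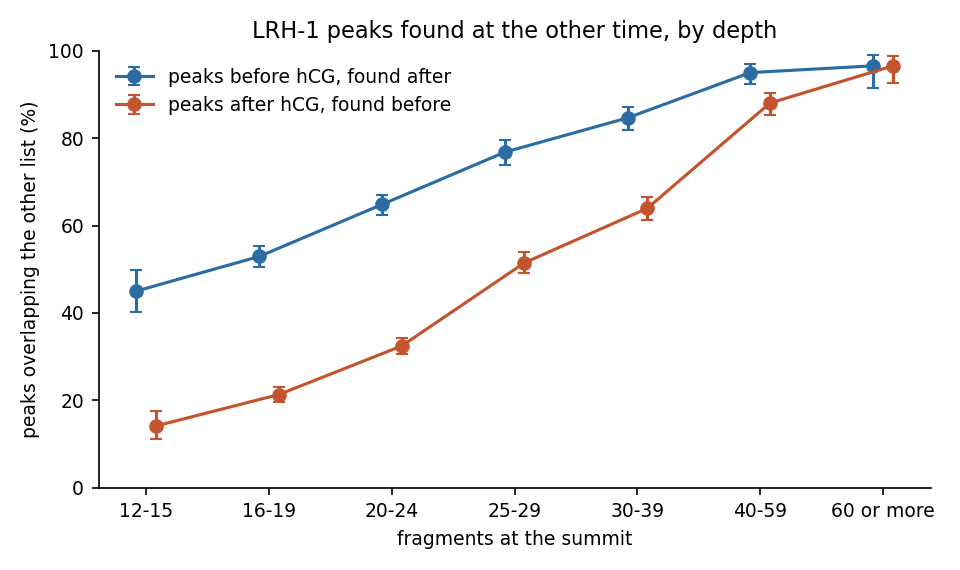
Share of LRH-1 peaks that overlap a peak of the other list (vertical axis, percent) by fragments at the summit (horizontal axis), for peaks before hCG (blue) and after hCG (orange); bars are exact 95% intervals. The shares start at 45.0% and 14.2% for 12 to 15 fragments and meet near 96.5% at 60 fragments or more. The full lists are of unequal length, 5886 peaks before and 9413 after hCG.

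Lost and gained peaks were shallower than persistent ones of their own list. Their definition favours this, since a shallow summit more easily misses the threshold at the other time. Lost peaks had a median of 19 fragments at the summit and 5.38-fold enrichment, against 23 fragments and 5.99-fold for peaks before hCG that persisted. Gained peaks had 21 fragments and 5.03-fold enrichment, against 27 fragments and 5.90-fold for persistent peaks after hCG. Gained peaks had a median of 138 fragments in their own 10 kb and lost peaks 123, but the whole lists differed likewise, at 147 after and 133 before hCG. Both lay below the persistent peaks of their own list, at 160 after and 139.5 before hCG.

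Depth limited what could be said of single absences. With the same number of fragments in its 10 kb, a lost peak would have needed a median of 13 fragments to reach the listed p-values after hCG, and a gained peak 14 before it. For 192 of 1948 lost peaks (9.86%, interval 8.57 to 11.3) the fragments held exceeded the most that an unlisted summit could hold by more than the exact interval of the ratio. The same held for 742 of 5473 gained peaks (13.6%, interval 12.7 to 14.5). For the other peaks nothing is shown either way, since a summit of 19 or 21 fragments is too shallow to differ from that bound, whatever the other library held there. MACS2 also drops regions narrower than a fragment, which this reckoning leaves out. Nor was the ratio corrected for fragment length, 219 bp before and 233 bp after hCG. Longer fragments raise counts after hCG, which favours the 742 gains over the 192 losses to an extent not measured. The reckoning also takes the 10 kb count as equal at both times. At sites paired 1 to 1 between the lists it was 1.14 times higher after hCG at the median site. Such a rise at these peaks would favour losses, so the net direction is not known. These deeper gains and losses had medians of 31 and 30 fragments. FAIRE, which had no part in choosing them, was seen only after hCG at 36.3% of the 742 deeper gains (interval 32.8 to 39.8) and at 21.1% of the 4731 others (interval 19.9 to 22.3). FAIRE was seen only before hCG at 48.4% of the 192 deeper losses (interval 41.2 to 55.7), against 30.8% of the 1756 others (interval 28.6 to 33.0). No FAIRE peak at either time was found at 35.7% of the deeper gains and 54.5% of the other gains. For losses these shares were 31.8% and 51.8%, so deeper peaks overlapped FAIRE more often in general. FAIRE at both times was seen at 23.6% against 16.3% of gains, and at 17.7% against 14.2% of losses, with overlapping intervals for losses. FAIRE only at the opposite time was less frequent at deeper gains, at 4.45% (interval 3.08 to 6.19) against 8.07% (interval 7.31 to 8.89). For losses the intervals overlapped, at 2.08% (4 of 192 peaks, interval 0.57 to 5.25) against 3.19% (interval 2.42 to 4.12). Depth and chromatin change were not separated.

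The gained peak of highest fold enrichment lay on chromosome 13 at 35451385 to 35451778, with 47 fragments and 11.9-fold enrichment, where 13 fragments would have been listed before hCG. The next were on chromosome 15 at 52759823 to 52760361 (71 fragments, 11.3-fold) and chromosome 16 at 89695960 to 89696410 (46 fragments, 10.3-fold). Those on chromosome 11 at 114698302 to 114698772 (52 fragments) and chromosome 17 at 35913891 to 35914304 (58 fragments) were both 10.1-fold enriched. A FAIRE peak was present after hCG at all 5, and before hCG at the one on chromosome 11 alone. These gains were not small shifts of older sites: the nearest peak before hCG lay between 18.2 kb (chromosome 17) and 728 kb (chromosome 16) away.

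The 5 lost peaks of highest fold enrichment are described likewise, and with the 5 gained ones they are too few to compare by FAIRE. The first lay on chromosome 1 at 137101992 to 137102408, with 61 fragments and 14.5-fold enrichment. It was followed by chromosome 9 at 40250385 to 40250733 (78 fragments, 13.1-fold) and chromosome 13 at 49407463 to 49407799 (57 fragments, 12.2-fold). None of these 3 overlapped a FAIRE peak at either time. The fourth, on chromosome 9 at 107876889 to 107877317 (48 fragments, 11.9-fold), lay at FAIRE peaks of both times, and the fifth, on chromosome 2 at 38353656 to 38354252 (50 fragments, 11.1-fold), at a FAIRE peak of the time before hCG. All 10 of these peaks, chosen for their height, are among the deeper gains and losses.

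Change in LRH-1 ChIP signal was read at 3909 one-to-one sites, where 1 peak of each list overlapped 1 of the other and no other. The answer depended on the measure. Fragments at the summit rose from a median of 23 (quartiles 19 and 30) to 27 (quartiles 22 and 36), and the median site held 1.15 times as many after hCG (log2 0.20, interval 0.18 to 0.22). Fragments were higher at 2500 sites, lower at 1237 and equal at 172. Divided by fragment length, the median ratio was 1.08 (log2 0.11, interval 0.09 to 0.13). The authors' fold enrichment went slightly the other way, from a median of 5.99 to 5.91, with a median log2 change of -0.03 (interval -0.05 to -0.02).

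The measures part because fold enrichment divides by the surroundings scaled to the fragment length. The surroundings gained reads, and the fragment length was 14 bp longer after hCG. Fragments in the 10 kb around the summit rose from a median of 139 (quartiles 118 and 168) to 160 (quartiles 134 and 197), or 1.14 times at the median site (log2 0.19, interval 0.18 to 0.20). At the 3506 sites above the floor in both lists, the fragments of the 10 kb that lay outside the summit rose 1.15 times, in 2765 of 3506 sites. Only fragments over the summit itself were taken out, so flanks of the peak and neighbouring peaks remain in this count. At 736 sites (18.8%) the summit held more fragments after hCG while its fold enrichment was lower. The reverse occurred at 24 sites (0.614%). What the broad rise comes from was not tested.

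**Figure D2:**
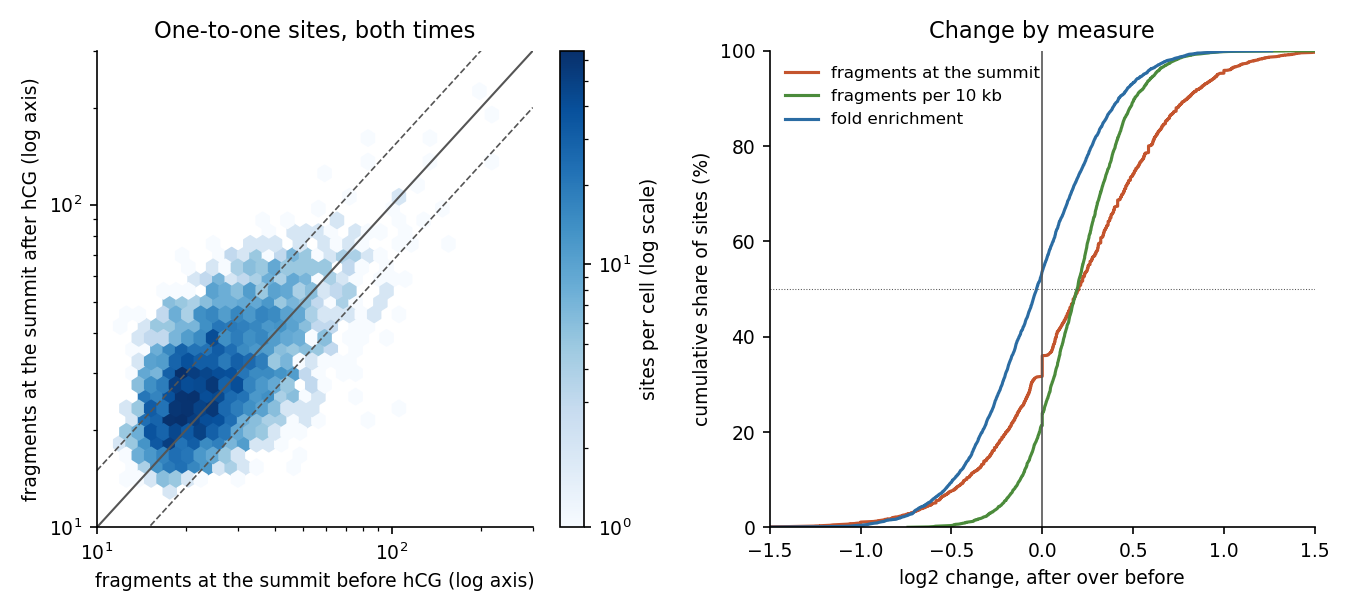
Left, fragments at the summit before (horizontal) and after hCG (vertical) at 3909 one-to-one sites, both axes logarithmic, with colour for the number of sites, a solid line of equality and dashed lines at 1.5-fold. Right, cumulative share of sites (percent) by log2 change after over before for 3 measures: fragments at the summit and fragments per 10 kb cross 50% near 0.20, and fold enrichment crosses near 0.

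How many one-to-one sites changed by a large ratio, and in which direction, depended on the measure. By fold enrichment 164 sites (4.2% of the 3909) rose past 1.5-fold and 249 (6.37%) fell past it. By fragments 780 sites (20.0%) rose and 220 (5.63%) fell past the same ratio. Per base of fragment length the numbers were 599 and 300, and with fragments scaled to an equal median they were 405 and 445, which turns the balance. The exact counting interval of the fragment ratio lay above 1 at 408 sites (10.4%) and below 1 at 111 (2.84%). The nominal share outside such an interval is 2.5% on either side. It is not the share expected here, since sites had to be listed at both times and the median ratio lay above 1. Per base of fragment length, 298 intervals lay above and 156 below. The rise was spread over sites of all strengths: across 10 equal groups by mean fold enrichment the median log2 fragment change ran from 0.16 to 0.25 in the lower 9. In the strongest group, from 8.43-fold upwards, it was 0.10 (interval 0.03 to 0.16), and 46 of its 391 sites fell past 1.5-fold in fold enrichment while 10 rose.

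The 5 largest rises of fold enrichment began from weak sites, which choosing by the ratio favours, as it favours strong sites among the largest falls. On chromosome 4 at 116345331 to 116345679 the summit went from 19 to 67 fragments, and fold enrichment from 4.95 to 11.9 (fragment ratio 3.53, interval 2.09 to 6.22). On chromosome 12 at 86205761 to 86206023 it went from 13 to 47 fragments (4.28- to 9.77-fold), and the peak widened from 263 to 650 bp. The other 3 lay on chromosome 10 at 55948783 to 55949010 (18 to 41 fragments), chromosome 7 at 52395569 to 52395896 (14 to 42) and chromosome 12 at 25995300 to 25995527 (17 to 51). Fold enrichment is built from these fragments, so the intervals of sites chosen by it are a description and no test. FAIRE peaks appeared after hCG at the sites on chromosome 7 and at 25995300 on chromosome 12, were present at both times at those on chromosomes 4 and 10, and were absent at the remaining one.

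The 5 largest falls began from strong sites that stayed in the list. On chromosome 11 at 50552977 to 50553448 the summit went from 85 to 21 fragments and fold enrichment from 13.1 to 4.20 (fragment ratio 0.247, interval 0.146 to 0.402). On chromosome 13 at 16546567 to 16546986 it went from 102 to 24 fragments (16.9- to 5.90-fold), and on chromosome 14 at 21690512 to 21690953 from 78 to 26 (12.0- to 4.55-fold). At these 3 sites the FAIRE peak was seen only before hCG. The site on chromosome 7 at 56687684 to 56688068 went from 47 to 16 fragments with no FAIRE peak at either time. That on chromosome 13 at 102304831 to 102305197 went from 50 to 17 fragments with FAIRE peaks at both. Summits moved by 19 to 87 bp at the 5 sites, so these were losses of height at the same place.

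The 5 sites of highest mean enrichment were not chosen for their change. The rises and falls above were, so the size of change cannot be compared between them. On chromosome X at 73399408 to 73399826 the summit held 190 fragments before and 225 after hCG, with 30.1-fold enrichment in both lists. The sites on chromosome 12 at 80599963 to 80600381 (139 and 161 fragments) and chromosome 6 at 30487887 to 30488304 (136 and 136) also had ratio intervals that held 1. So did that on chromosome 4 at 28103919 to 28104304 (93 and 68 fragments, ratio interval 0.527 to 1.01). The fifth, on chromosome 11 at 53953531 to 53954257, fell from 212 to 131 fragments (ratio 0.618, interval 0.493 to 0.772). Its fold enrichment went only from 18.6 to 16.8, since the fragments of its 10 kb fell with the summit, from 476 to 294.

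LRH-1 ChIP signal at one-to-one sites changed together with open chromatin, a readout from separate samples that played no part in choosing them. Since the values appear to hold no input library, LRH-1 binding and the yield of fragments from open chromatin cannot be told apart here. At the 323 sites where a FAIRE peak appeared after hCG, fragments at the summit went from a median of 21 to 31, and the median log2 change was 0.54 (interval 0.47 to 0.60). At the 861 sites where the FAIRE peak disappeared, the median was 26 at both times, with a median log2 change of -0.05 (interval -0.07 to 0.00). Sites with FAIRE peaks at both times (1364) and with none (1361) lay between and close to each other, at 0.25 (interval 0.22 to 0.30) and 0.21 (interval 0.18 to 0.24). Fragments rose at 83.3% of sites where FAIRE appeared (interval 78.8 to 87.2) and at 45.1% where it disappeared (interval 41.7 to 48.5).

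Fold enrichment gave the same order, at 0.17 (interval 0.09 to 0.22) where FAIRE appeared and -0.16 (interval -0.19 to -0.13) where it disappeared. The difference of these medians was 0.33 in log2 for fold enrichment and 0.59 for fragments. For fragments it was present in each of 3 equal groups of sites by mean fragments: where FAIRE appeared the median log2 fragment change was 0.29, 0.61 and 0.68 from the weakest to the strongest group, and where it disappeared 0, 0 and -0.09. For fold enrichment the weakest group had overlapping intervals, at -0.02 (interval -0.11 to 0.05) where FAIRE appeared and -0.12 (interval -0.16 to -0.07) where it disappeared, and the stronger groups did not. Fragments in the surrounding 10 kb moved in the same order, from 1.27 times where FAIRE appeared to 1.06 times where it disappeared. Among sites whose ratio interval excluded 1, the counts above and below were 88 and 0 where FAIRE appeared, and 28 and 50 where it disappeared. Sites are not replicates and share 1 list per time, so these differences carry no p-value.

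**Figure D3:**
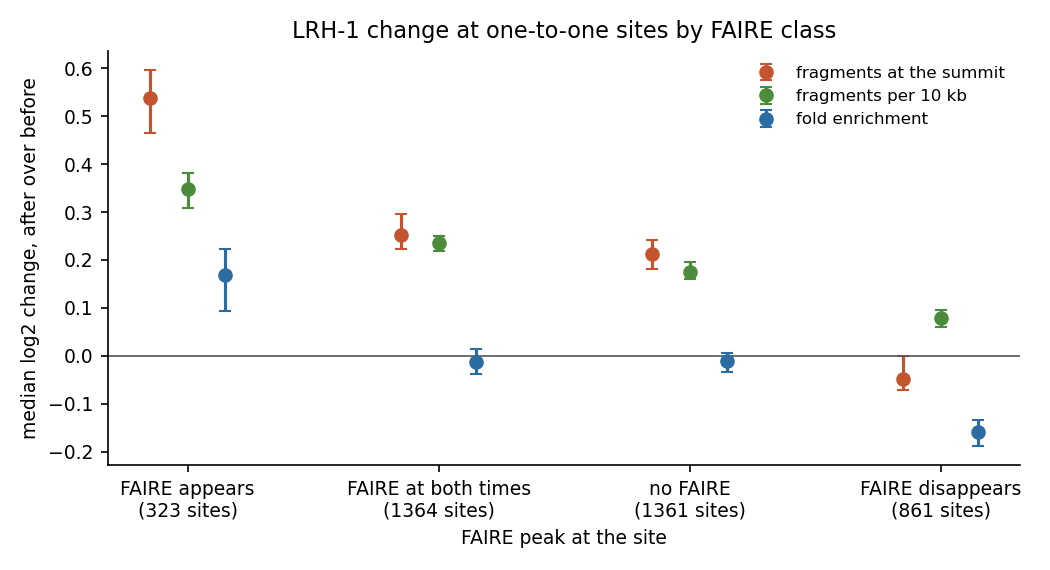
Median log2 change after over before hCG (vertical axis) of fragments at the summit (orange), fragments per 10 kb (green) and fold enrichment (blue) at one-to-one LRH-1 sites, by the FAIRE peak at the site (horizontal axis); bars are 95% intervals of the median. All 3 measures are highest at the 323 sites where FAIRE appears and lowest at the 861 where it disappears.

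Most summits lay close to their former place. The absolute distance between the summits of a one-to-one site had a median of 44 bp (interval 42 to 45, quartiles 20 and 78), and the signed shift a median of 1 bp (interval -1 to 4, quartiles -43 and 44). Within 50 bp lay 56.2% of sites, within 100 bp 84.4% and within 200 bp 97.0%, and 20 sites had the same summit base. The summit before hCG lay inside the peak after hCG at 3802 sites (97.3%), and the reverse held at 3735 (95.5%). Distance fell steadily with enrichment, from a median of 62 bp (interval 56 to 67) in the weakest of the 10 groups to 27 bp (interval 24 to 30) in the strongest. It differed little between FAIRE classes, at 50 bp (interval 43 to 54) where FAIRE appeared and 40 bp (interval 37 to 44) where it disappeared.

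**Figure D4:**
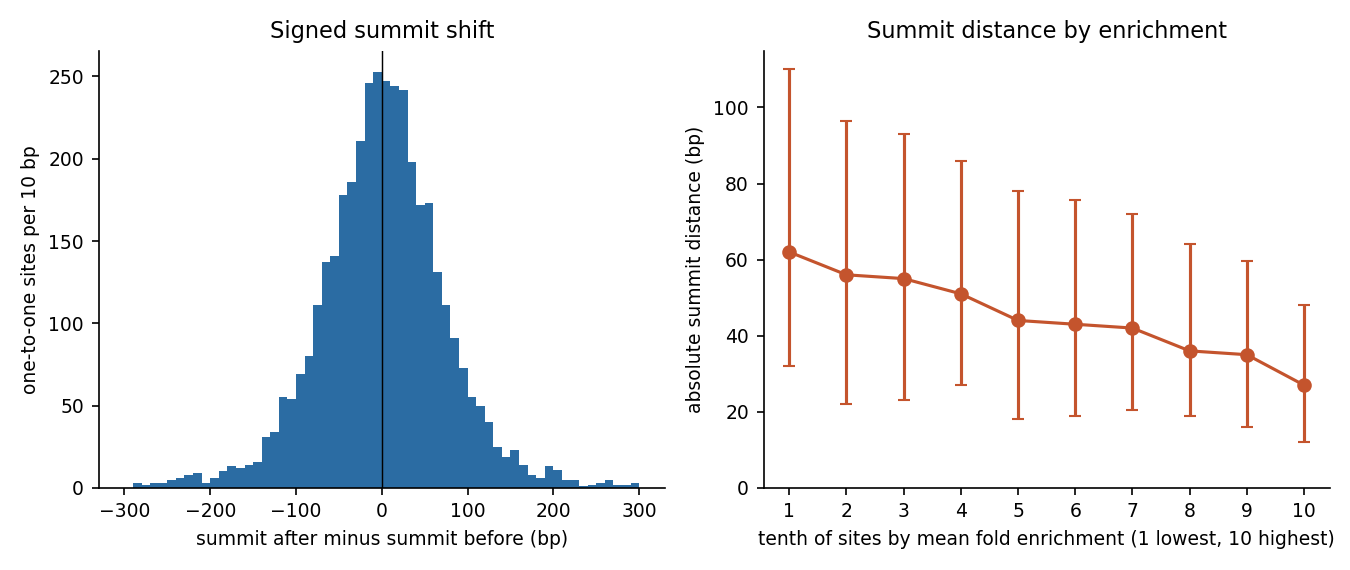
Left, number of one-to-one sites per 10 bp (vertical) by signed summit shift, after minus before hCG (horizontal, bp; shifts beyond 300 bp are outside the axis). Right, median absolute summit distance (bp, bars are quartiles) in 10 equal groups of sites by mean fold enrichment; the median falls from 62 to 27 bp.

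Only 117 sites had summits more than 200 bp apart. They were wide, with median widths of 358 bp before and 456 bp after hCG, compared with 307 and 363 bp at the other sites, and weaker, at 5.08- and 5.22-fold. The largest shift, -786 bp on chromosome 13, joined a peak at 55291581 to 55292012 with 17 fragments to a peak 1520 bp wide with 49 fragments. Shifts of -526 bp on chromosome 17 (5218964 to 5219205, 15 to 37 fragments) and -519 bp on chromosome 5 (143086133 to 143086643, 35 to 32 fragments) followed. In all 3 the peak had grown wider, to 1520, 869 and 815 bp, so the new summit lay within a wider peak. Single peaks also split or merged at a few places: 11 peaks before hCG overlapped 2 or more after it, whose summits lay a median of 409 bp apart, and 9 peaks after hCG covered 2 or more from before, 447 bp apart.

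Peaks were wider after hCG. The median width at one-to-one sites was 307 bp before and 365 bp after hCG. Fragments longer by 14 bp can by themselves move either edge out by that length. Of all peaks, 600 before and 843 after hCG had exactly the smallest width of their list.

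LRH-1 peaks lay far apart at both times. The distance from a summit to the nearest other summit of its list had a median of 58.2 kb before hCG (interval 55.3 to 60.8, quartiles 18.3 and 161) and 33.5 kb after it (interval 32.0 to 34.7, quartiles 12.7 and 85.6). This closer spacing went with the number of peaks: the best-scoring 5886 after hCG had a median of 53.8 kb (interval 51.2 to 57.0). Neighbours within 1 kb were rare, at 2.24% of peaks before and 3.11% after hCG. Neighbours within 10 kb were found for 15.4% and 20.1%. In the best-scoring 5886 after hCG these shares were 1.60% and 14.3%, below those before hCG. The 10 kb background is counted around the summit, so a neighbour adds fragments to it only where they lie inside that window. A neighbour nearly 10 kb away lies outside it.

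Gained and lost peaks were set against the same reference, the one-to-one sites. Gained peaks lay a median of 93.6 kb from the nearest of them (interval 89.6 to 98.6), lost peaks 113 kb (interval 102 to 122), and persistent sites 84.8 kb from the next one (interval 79.6 to 90.7). Within 10 kb of a persistent site lay 8.48% of gained peaks (interval 7.75 to 9.25), 10.6% of lost peaks (interval 9.24 to 12.0) and 10.6% of persistent sites (interval 9.69 to 11.7). Within 1 kb the shares were 1.02%, 1.08% and 1.28%. The shares were low for persistent sites too, so low shares describe sparse peaks in general. Within 10 kb the share of gained peaks was nevertheless below that of persistent sites, and lost peaks had the longest median distance. A gained peak lay within 1 kb of only 48 of the 1948 lost peaks (2.46%, interval 1.82 to 3.25). Single-time peaks near a persistent site held more fragments, with a median of 24 for gained peaks within 10 kb and 20 beyond 100 kb. They were less enriched (4.68- against 5.14-fold) over a 10 kb count of 181 against 130. A higher 10 kb count raises the fragments a peak needs to be listed, so the threshold itself favours this pattern.

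**Figure D5:**
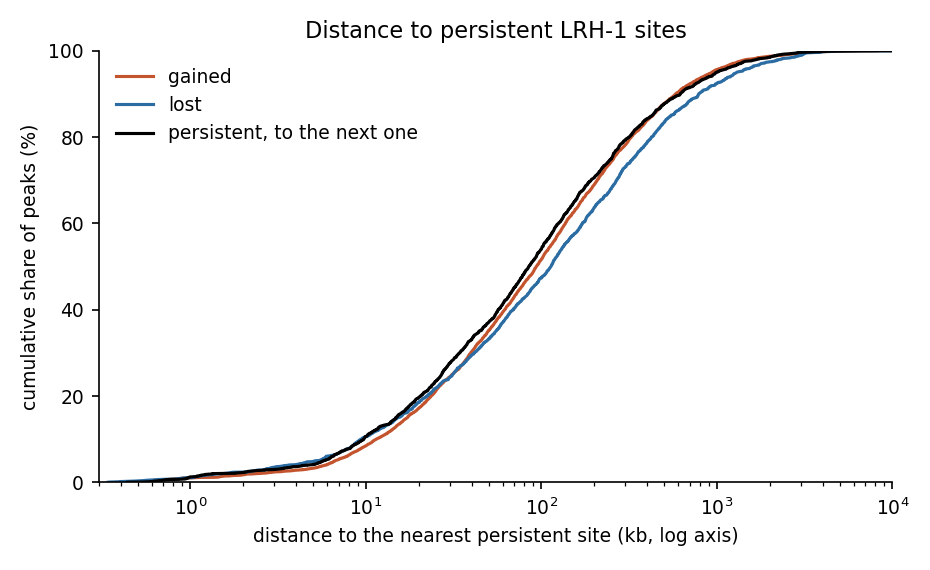
Cumulative share of peaks (vertical, percent) by distance to the nearest persistent one-to-one LRH-1 site (horizontal, kb, log axis) for gained (orange), lost (blue) and persistent sites (black, to the next one). The curves run close together, with medians of 93.6, 113 and 84.8 kb.

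Both lists together held 11350 separate sites, of which 3929 were persistent, 5473 gained and 1948 lost. They occupied 8416 windows of 50 kb, 6256 of them with a single site and 28 with 5 or more. The fullest windows held 6 sites each. On chromosome 1 from 173150001 to 173200000, 5 of the 6 were gained and 1 was persistent. By contrast, the window on chromosome 12 from 16750001 to 16800000 held 5 persistent sites and 1 gained. The windows on chromosome 2 from 92850001 (4 persistent, 2 gained) and on chromosome 9 from 54500001 (2 persistent, 3 gained, 1 lost) were mixed.

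The changes ran across the genome. The number of peaks rose on every chromosome, from 1.22 times on chromosome X (78 to 95 peaks) to 1.88 times on chromosome 17 (238 to 447). The median log2 change of fragments at one-to-one sites lay between 0.08 (chromosome 1) and 0.32 (chromosome 16) on all chromosomes but chromosome 18. There it was 0 (interval -0.12 to 0.07, 114 sites), with a median log2 fold enrichment change of -0.16 and a rise in peaks of 1.38 times, the lowest of the autosomes. Chromosome 18 was singled out after its values were seen. Its FAIRE peaks numbered 1.10 times as many after hCG, within the 1.02 to 1.12 times of the other autosomes.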

How the data were processed

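Per the submitters' processing notes, reads were aligned with BWA to mm9, LRH-1 peaks were called with MACS2 2.1.0, and bedtools was used. The sources used here do not give whether replicates were pooled or which control was used. For each LRH-1 peak the authors deposited a fold enrichment ratio, p and q on the −log10 scale, a summit and a score, which is the whole part of 10 times the −log10 q. FAIRE lists were deposited as positions with a score of unstated scale. RNA was not analysed here.

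In Python 3.11.15 (numpy 2.4.6, pandas 2.3.3, scipy 1.17.1), fragments k and background b were solved from fold = (k + 1)/(b + 1) and the Poisson tail above k, and checked on simulated peaks. Intervals are exact (Clopper-Pearson) for shares and ratios and order-statistic for medians. A FAIRE peak was assigned if it overlapped either LRH-1 peak of a site by 1 bp. Named were the 5 largest rises, falls, means, gained and lost peaks, and the 3 largest summit distances and fullest windows (4 with ties), outside chromosome 18. Sites, measures and comparisons were chosen with earlier results of these data known. Recovered fragments were foreseen for counts past 1.5-fold, and added after the data were seen for medians, intervals and absences. Alternatives were other overlap rules, stricter or equal peak numbers, midpoints, other references and recovered fragments. No hypothesis test was run, since there is 1 list per time.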

Additional observations from a re-analysis of the deposited data

How the results depend on the processing

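Alternatives numbered 51 over 11 results: 19 stayed within the main interval or within 1.5 times the main count, 29 moved and 3 turned the sign. The share of peaks before hCG found after it (66.9%) was 62.0% with 50% of both peaks overlapping, 56.3% with summits within 100 bp, 79.1% from 6-fold, 53.8% at equal numbers, 68.5% within 1 kb and 89.0% from 30 fragments. For peaks after hCG (41.9%) these were 38.8%, 35.2%, 66.4%, 53.7%, 43.2% and 73.8%. The median log2 change of fold enrichment (-0.03) turned to 0.036 at equal numbers, which drops weak peaks of the longer list alone, to 0.20 with fragments, and to 0.11 with fragments per base of fragment length. Sites up and down past 1.5-fold (164 and 249) became 4 and 17 past 2-fold, and 405 and 445 with fragments scaled to an equal median. With fragments unscaled, 780 rose. The summit distance (44 bp) was 41 bp with 50% overlap, 36 bp from 6-fold and 35 bp between midpoints. Median spacing from 6-fold was 162 kb before and 145 kb after hCG, and 53.8 kb after it at equal numbers. Gained and lost peaks lay 64.4 and 43.5 kb from any peak of the other list, and 273 and 289 kb from persistent sites from 6-fold. The log2 difference between sites where FAIRE appeared and disappeared (0.33) was 0.41 from 6-fold and 0.59 with fragments. Where not said, the cause was not tested. The limit of 30 fragments and the unscaled or per-base fragments were chosen after seeing the data. No paired analysis was possible because each time has 1 list, and for that reason no replicate could be left out. Recovered fragments are overlapping fragments at the highest point of a peak, so medians near 20 leave single sites with wide intervals.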

Other observations

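A few of the most enriched sites kept the same outline at both times, a pattern looked for after the data were seen. Fragments were 14 bp longer after hCG, and at 5 of 3909 one-to-one sites both edges of the peak lay 14 bp further out, within 1 bp. These 5 sites had a median of 20.9-fold enrichment before and 19.6-fold after hCG, against 5.99- and 5.91-fold at the other 3904, and 4 of them were among the 20 sites of highest mean enrichment. Their summits lay a median of 5 bp apart, and FAIRE peaks were absent from 4 of the 5 and from 34.8% of the others. The site on chromosome X at 73399408 to 73399826 was one of them, with 190 and 225 fragments in the most enriched peak of either list. What sets them apart was not tested.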
